A study of Homo sapiens with 4 samples.

Results

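Open chromatin after 1 hour of dexamethasone was set directly against open chromatin after 1 hour of estradiol in Ishikawa, a cell line established from a human endometrial adenocarcinoma. The members were every region called on chromosomes 1 to 22 and X in the 2 lists: 8419 regions after 100 nM dexamethasone and 4761 after 10 nM estradiol, 13180 of the 15269 regions in the 4 lists of the series. The assay was ATAC-seq: a transposase inserts sequencing adapters wherever nucleosomes leave DNA exposed. Both groups grew in hormone-depleted medium (phenol red-free, with charcoal-stripped serum) for several days before treatment, and so did the vehicle (DMSO) library and the library given both hormones, called the combination here. Each treatment had 1 library, so the values describe these libraries and no difference has a replicate check.

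Dexamethasone is a synthetic ligand of the glucocorticoid receptor, and 17-beta-estradiol is the natural ligand of the estrogen receptor. Both receptors are nuclear transcription factors that bind DNA response elements once they hold their ligand, and both can recruit remodelling complexes that open chromatin. The glucocorticoid receptor is also known to bind largely at sites that are already open. In the endometrium, estradiol is the growth-promoting hormone of the epithelium, and glucocorticoids are known to counter some of its actions.

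Before duplicate removal the dexamethasone library held 24950579 tags, of which a share of 0.40 was redundant. The estradiol library held 28148235, with a redundant share of 0.28. After duplicate removal the dexamethasone library held 14980230 tags, each extended to 89 bp, and the estradiol library 20185339 tags, each extended to 84 bp. These give a mean coverage of 0.494 and 0.628 extended tags per base, so the estradiol library was the deeper one by a factor of 1.27. Heights below are the tags stacked at a region's summit divided by this mean coverage, so a height of 40 means 40 times the library's average base. The dexamethasone list was nonetheless the longer one. Its regions had a median height of 42.5 and the estradiol regions a median height of 31.8, where the vehicle list had 43.7.

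Most regions open after estradiol were also found after dexamethasone, and the reverse held for about every other dexamethasone region. A dexamethasone region overlapped 4226 of the 4761 estradiol regions (88.8%, 95% interval 87.8 to 89.7). In the other direction, 4180 of 8419 were matched (49.65%, 48.6 to 50.7). The overlapping regions formed 4166 shared sites, of which 4095 held exactly 1 region of each list. Overlap was rarely marginal. In 2455 of the 4240 overlapping pairs (57.9%) the shorter region lay wholly inside the longer one, and in 71 pairs the overlap was under 50% of the shorter region. The summits of the 2 libraries lay a median of 29 bp apart, and 70.2% of sites had summits within 50 bp.

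How often a dexamethasone region was shared depended on its height. Below a height of 30, 98 of 598 were matched by estradiol (16.4%, 13.5 to 19.6). The share was 27.9% between 30 and 40, 48.6% between 40 and 50, and 77.3% between 50 and 60. All 220 regions of height 80 or more were shared. Estradiol regions were matched more often at the same low heights: 80.1% of those below 30 (78.3 to 81.9) and 93.0% of those between 30 and 40 (91.8 to 94.1) were matched. Equal heights are not like classes here, since the lowest height was 22.3 in the dexamethasone list and 15.9 in the estradiol list. The class below 30 held 1877 of the 4761 estradiol regions. Estradiol regions were also set against the longer list. Between 60 and 80 the estradiol share was 55 of 59 regions (93.2%, 83.5 to 98.1), and in the class below it 153 of 155 (98.7%, 95.4 to 99.8).

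**Figure D1:**
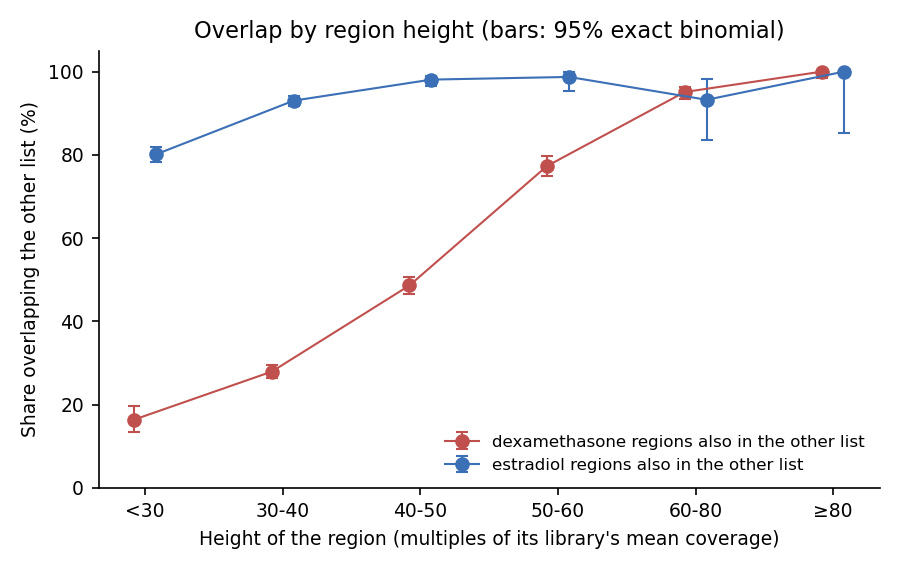
Share of regions (%, vertical axis) that overlap the other list, by region height in multiples of the library's mean coverage (horizontal axis), with exact binomial 95% bars. The dexamethasone share climbs from 16.4% to 100%, while the estradiol share is 80.1% or more in every height class.

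At the shared sites the dexamethasone library was taller nearly everywhere. The median scaled height was 48.6 with dexamethasone (quartiles 40.5 and 60.8) and 31.8 with estradiol (27.1 and 38.2). The median ratio of dexamethasone over estradiol was 1.51 (quartiles 1.33 and 1.74), and the ratio was above 1 at 4084 of 4166 sites (98.0%). The raw stacks behind these values were small, with medians of 24 and 20 tags and a range of 11 to 95 tags with dexamethasone and 10 to 101 with estradiol. At least a 2-fold higher height with dexamethasone was seen at 320 of 4166 sites, 7.68%, and a 2-fold higher height with estradiol at 0 of 4166 (0%), which allows a share of up to 0.072% if a count of 0 is given a limit of 3 sites. This count depends on the scaling: it was 539 with tags alone, and 1 when every ratio was divided by the median ratio, where 2 sites were 2-fold higher with estradiol. The threshold cut through a continuous distribution: 499 sites had ratios from 1.8 up to 2, and the nearest ratios on either side of the threshold were 1.9985 and 2.0055.

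**Figure D2:**
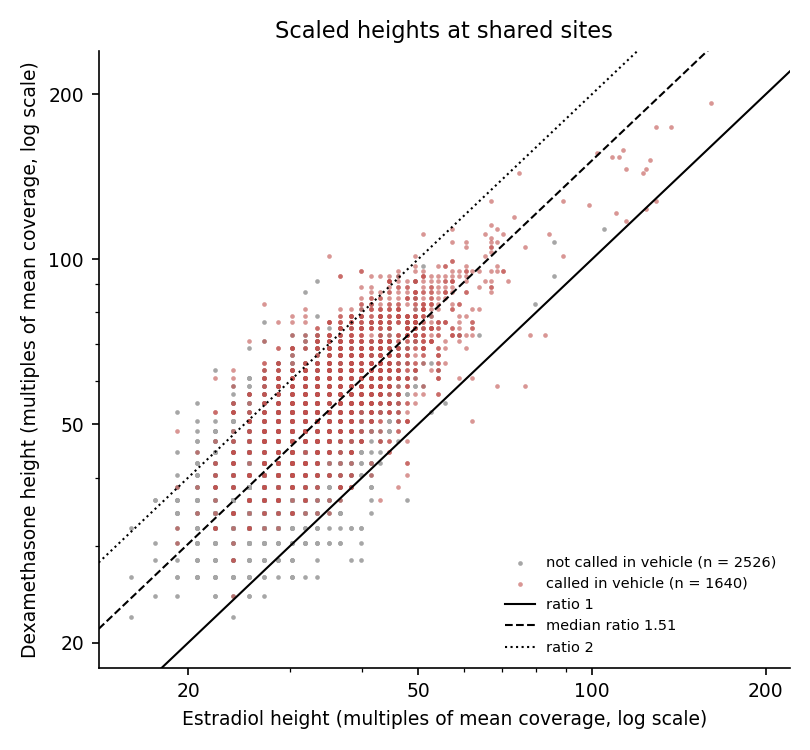
Each point is 1 of the 4166 shared sites, with its estradiol height (horizontal) and dexamethasone height (vertical) in multiples of mean coverage, both on log scales; red sites were also called in vehicle. The cloud lies along the dashed line of the median ratio 1.51, above the solid line of equal height, and 82 sites fall below that solid line.

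The local background of the sites was also higher with dexamethasone. The local background that MACS used, an average over up to 10 kb around a region, had a median of 2.56 times mean coverage with dexamethasone and 1.91 with estradiol. The median ratio of the 2 backgrounds was 1.36, and the ratio was above 1 at 4035 sites (96.9%). MACS ran with no control library, so this background came from the same library and its window held the region itself. It is thus not independent of the height. The median background ratio was 1.09 at sites with a scaled ratio below 1, and 1.49 at those of 2-fold or more. Dividing each height by its own local background, as the authors' fold enrichment does, therefore left a smaller difference: the median ratio of fold enrichments was 1.14 (quartiles 1.02 and 1.28). On that scale 3238 sites were above 1 (77.7%, against 98.0% for scaled heights) and 2 sites reached 2-fold. Regions were also longer with dexamethasone at 3357 of the 4166 sites (80.6%), with medians of 194 and 145 bp.

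The ratios of single sites varied less than counting error alone would spread them. The SD of the log2 ratio over the 4166 sites was 0.29, and the median counting SD of a single log2 ratio, from the 2 tag numbers, was 0.44. A site entered only where both libraries passed their own threshold, which trims extreme ratios. For 793 sites (19.0%) the 95% counting interval lay above 1, and for 0 sites it lay below 1. Set against the median ratio of 1.51 in place of 1, the interval lay above it at 5 sites and below it at 12. These are fewer than the 5% of 95% intervals that counting error alone would place off a common ratio in untrimmed data. The trimming lowers that share by an amount not estimated here. The intervals therefore cannot set a single site apart from the general difference between the libraries.

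The site with the highest ratio lay at chr5:102594168-102594468 (hg19), where 41 tags with dexamethasone and 17 with estradiol gave heights of 83.0 and 27.1, a ratio of 3.07 (1.70 to 5.76). The second was at chr7:155021969-155022257, with 50 and 22 tags, heights of 101 and 35.0 and a ratio of 2.89 (1.72 to 5.01). The third was at chr2:178937439-178937615, with 38 and 17 tags and a ratio of 2.84 (1.57 to 5.37). In each of these 3 the lower bound of the interval exceeded the median ratio of all sites. The other 2 sites with that property were at chr11:13689836-13690198 (43 and 20 tags, ratio 2.73) and chr4:147866977-147867178 (45 and 21 tags, ratio 2.73).

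The remaining sites among the 10 highest were at chr5:171042370-171042516 (31 and 14 tags), chr6:96969549-96969762 (35 and 16 tags), chr6:88032171-88032408 (26 and 12 tags), chr11:37832959-37833155 (30 and 14 tags) and chr12:107168265-107168488 (34 and 16 tags). Their ratios ran from 2.70 to 2.82, and their intervals included 1.51. Of the 10 sites, 4 were called in vehicle and 0 in the combination, where 39.4% and 2.06% of all shared sites were; these counts do not distinguish the 10. At those 4, the vehicle height fell between the estradiol and the dexamethasone height. On chromosome 5 from 102594168 it was 51.0, between 27.1 and 83.0. On chromosome 7 from 155021969 it was 70.4, between 35.0 and 101. The sites were picked for the largest ratios of the 2 hormone libraries, so another library would tend to fall between them. By fold enrichment the 10 sites had ratios of 1.63 to 2.104, and 7 of them were also among the 10 highest on that scale. Of the 10 sites with the lowest scaled ratios, 3 were among the 10 lowest by fold enrichment. Fold enrichment uses the same stacks, with a Spearman's rho of 0.90 between the 2 ratios over all sites. It is thus not a separate check of the ranking.

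At the other end, the lowest ratio was found at chr10:98561341-98561527, with 14 tags after dexamethasone and 25 after estradiol, heights of 28.4 and 39.8 and a ratio of 0.712 (0.342 to 1.42). Next came chr12:69402384-69402535 (14 and 24 tags, ratio 0.742) and chr4:49122973-49123074 (18 and 30 tags, ratio 0.763). Every interval among the 10 lowest sites included 1, so none was shown to be taller with estradiol beyond counting error. For 6 of the 10 the interval did lie below the median ratio of 1.51. The tallest of them was at chr4:49151721-49151841, with 29 and 48 tags and a ratio of 0.768 (0.467 to 1.24); vehicle had 33 tags and the combination 32 tags there.

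The other 6 of the 10 lowest lay at chr12:26254392-26254609, chr5:108804597-108804717, chr4:141556960-141557071, chr11:128894017-128894170, chr16:14580862-14580989 and chr7:140217856-140217966, with ratios from 0.763 to 0.827. Among sites with at least 50 tags in sum, the 5 lowest by upper bound were the sites on chromosome 4 from 49151721 and chromosome 16 from 14580862, and 3 more at chr7:61968914-61969062 (36 and 52 tags), chr18:108180-108483 (63 and 81 tags) and chr16:46427473-46427752 (29 and 43 tags). All 5 were called in vehicle and in the combination too. The 82 sites with a ratio below 1 were small in the dexamethasone library, with a median region length of 122.5 bp there, against 218 bp at the 320 sites of 2-fold or more. In the estradiol library the same 2 sets had median lengths of 128 and 148 bp. The ratio that forms the sets contains the dexamethasone height, whose median was 32.4 and 60.8 in them. Over all shared sites the median dexamethasone length also rose with the summed tags, from 142 bp under 38 tags to 283 bp at 57 or more. The lengths are thus not independent of the ranking.

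**Figure D3:**
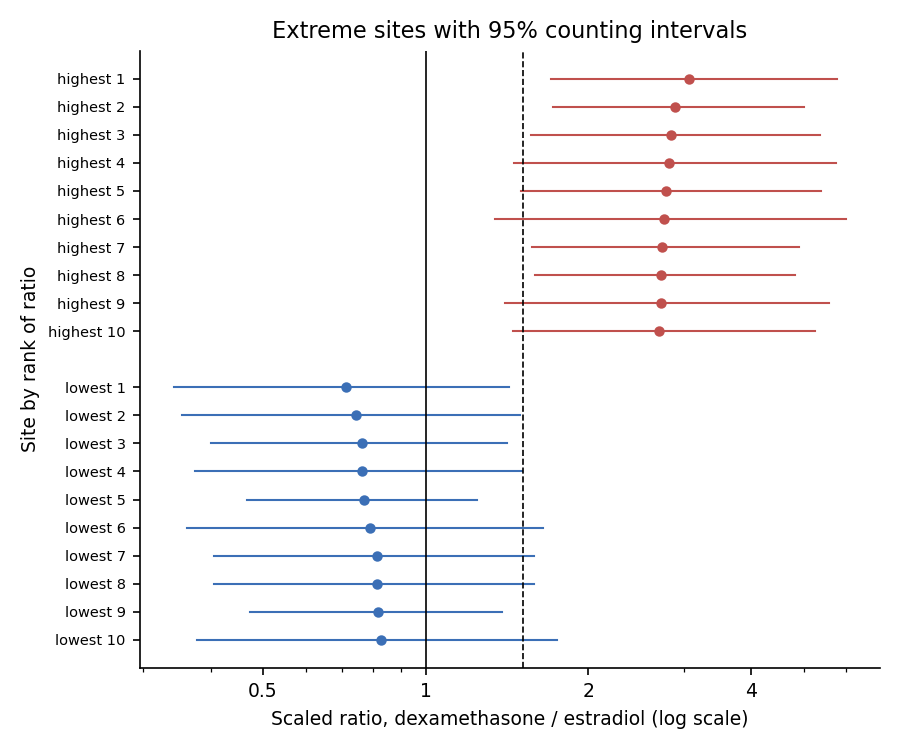
Scaled ratio of dexamethasone over estradiol (horizontal, log scale) with its 95% counting interval for the 10 highest (red) and 10 lowest (blue) shared sites, by rank (vertical). All 10 red intervals lie right of the solid line at 1 and 5 of them right of the dashed median line at 1.51. All 10 blue intervals cross 1. The sites were picked by this same ratio, and the intervals make no allowance for that choice.

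The sites that were tallest in both libraries had ratios below the median. The 10 with the highest product of heights had ratios from 1.17 to 1.42, and all 10 were called in vehicle and in the combination. The tallest, at chr1:121484421-121485435, had 95 tags with dexamethasone and 101 with estradiol, 93 in vehicle and 65 in the combination. The next, at chr1:569855-569998, had 86 tags in each hormone library, 74 in vehicle and 64 in the combination. Their ratios after scaling were 1.196 and 1.27. In these libraries at most 1 tag per position and strand was kept, which caps a stack at 178 tags with dexamethasone and 168 with estradiol. The tallest stacks held 95 and 101. Whether the limit also held down stacks below these caps, and so changed the ratios of the tallest sites, was not tested. Of the 10 sites, 8 had a local background over 3 tags in at least 1 of the libraries, a level reached at 72 of the 4166 sites; whether they lie in repeats was not tested.

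Across the bulk of sites the ratio grew with the number of tags. Sites with under 38 tags in sum had a median ratio of 1.36, those with 38 to 42 tags 1.47, those with 43 to 47 tags 1.57, and the 2 taller classes (48 to 56 tags, and 57 or more) both 1.59. The share with at least a 2-fold ratio was 2.304% in the lowest of these classes and 10.7% in the highest, where the share over all sites was 7.68%. No shared site had under 10 tags with estradiol, which bounds the ratio most tightly where the sum is low.

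The vehicle list, which the ratio does not use, held more of the high-ratio sites. It covered 1640 of the shared sites, at a median ratio of 1.59 and with 164 sites (10.0%) at 2-fold or more; the 2526 other sites had a median ratio of 1.47 and 156 (6.18%) at 2-fold or more. Sites called in vehicle were also taller, with a median of 54 tags in sum against 40. At like heights the difference was smaller: 1.44 against 1.36 under 38 tags, 1.57 and 1.57 at 43 to 47 tags, and 1.60 against 1.55 at 57 tags or more. From the lowest to the highest ratio class, the share of sites called in vehicle went from 23.2% (14.6 to 33.8) below a ratio of 1 to 51.3% (45.6 to 56.8) at 2-fold or more.

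**Figure D4:**
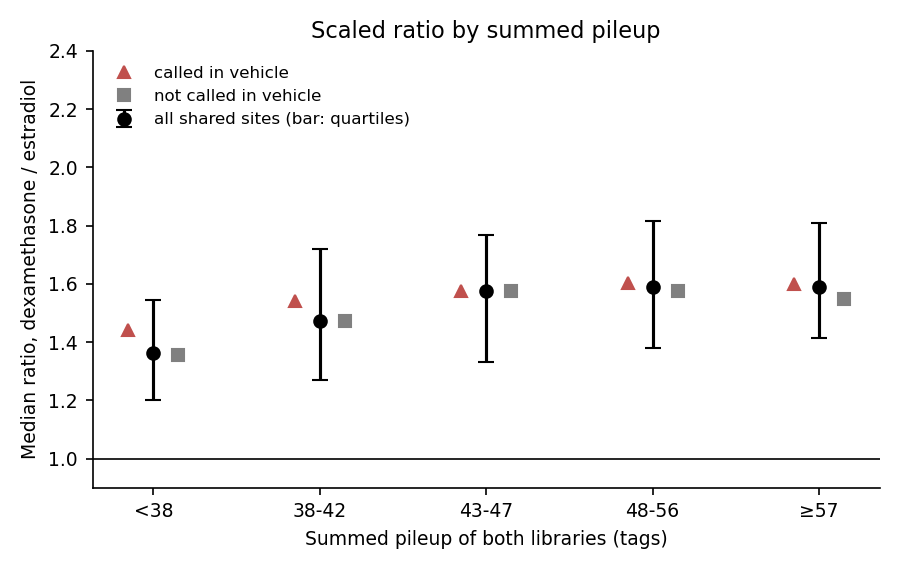
Median scaled ratio of dexamethasone over estradiol (vertical) by the summed tags of both libraries (horizontal), with quartiles as bars; triangles and squares give sites called and not called in vehicle. The median goes from 1.36 to 1.59 with height, and the triangles and squares lie within the quartile bars of every class.

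The combination list went the other way. It covered 86 of the shared sites, and these had a median ratio of 1.34, against 1.52 at the other 4080. Of the sites with a ratio below 1, 12 of 82 were called in the combination (14.6%, 7.80 to 24.2), and of those at 2-fold or more 2 of 320 (0.625%, 0.0758 to 2.24). The combination sites were tall, with a median of 75 tags in sum. Within the sites of 57 tags or more, 23 of 72 with a ratio under 1.25 were called in the combination (31.9%, 21.4 to 44.0), against 45 of 707 with a higher ratio (6.36%, 4.68 to 8.42). Combination calls were also frequent at sites with a local background over 3 tags, a differently chosen set: 23 of 72 (31.9%), against 63 of 4094 others (1.54%). Those sites were tall too, with a median of 78.5 tags in sum, and their median ratio was 1.52. The combination library had the fewest tags and a fragment length of 51 bp. The part of these and of the local background in the pattern was not tested.

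**Figure D5:**
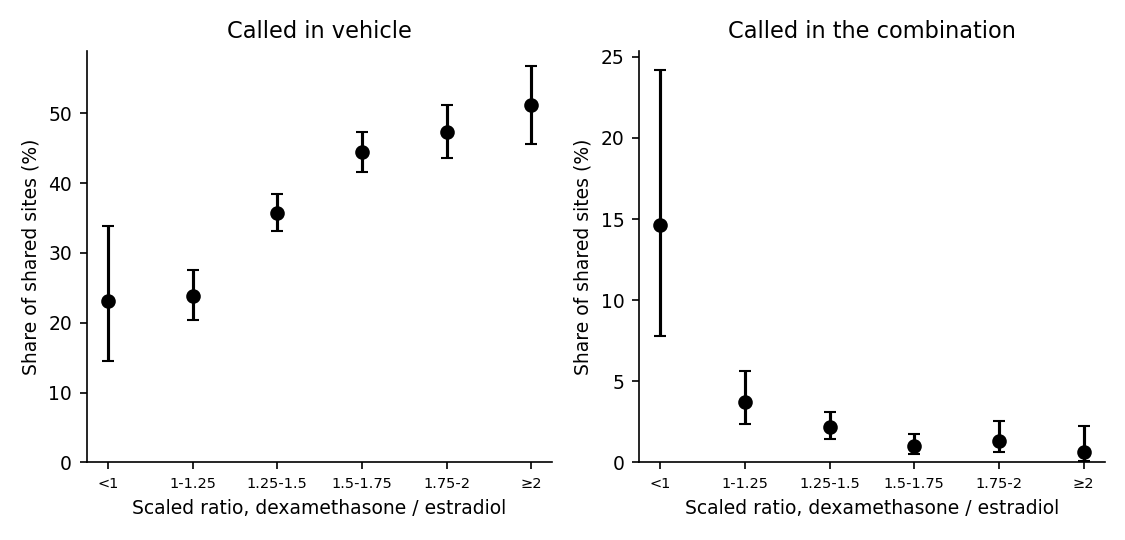
Share of shared sites (%, vertical) called in the vehicle library (left) and in the combination library (right), by class of the scaled ratio of dexamethasone over estradiol (horizontal), with exact binomial 95% bars. The vehicle share goes from 23.2% to 51.3% across the classes, and the combination share from 14.6% to 0.625%.

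Where vehicle was called too, its height could be set beside both hormones. At these 1640 sites the median heights were 60.8 with dexamethasone, 46.1 with vehicle and 38.2 with estradiol. Dexamethasone was the tallest of the 3 at 1469 sites (89.6%), vehicle at 161 (9.82%) and estradiol at 10 (0.610%). The estradiol height was below the vehicle height at 1371 sites. Both hormones are read here against the same vehicle library, and a site entered only if all 3 libraries called it. The order of the medians, with vehicle between the hormones, describes these jointly called sites.

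The 4239 dexamethasone regions without an estradiol counterpart were lower and shorter than the shared ones. Their median height was 36.5, against 48.6 for the shared dexamethasone regions, and their median length 123 bp, against 194. Still, at equal height the estradiol library would have stacked a median of 22.9 tags on them, and 4223 of them (99.6%) would have exceeded 15 tags, the 10th percentile of the estradiol list. When the median ratio of 1.51 was allowed for, the median came to 15.1 tags and 2430 (57.3%) exceeded 15. Vehicle regions overlapped 201 of them (4.74%, 4.12 to 5.42), against 39.3% of the shared dexamethasone regions, and combination regions overlapped 3 (0.0708%), against 2.06%. These contrasts are not at like height. Over all dexamethasone regions, shared or not, vehicle overlapped 1.84% below a height of 30, 5.19% from 30 to 40 and 14.5% from 40 to 50. The unshared regions mostly lay away from estradiol regions, at a median distance of 117 kb, and 179 of them lay within 500 bp of one.

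By p-value, the strongest dexamethasone region without an estradiol call was at chr3:57094530-57094677, with 31 tags, a height of 62.8 and a 16.9-fold enrichment over its background. Chromosome 1 from 71546967 to 71547104 (33 tags, height 66.8) and chr15:85458273-85458451 (34 tags, height 68.9) followed. At equal height these 3 would have had 39.4 to 43.2 tags in the estradiol library. Those on chromosomes 3 and 15 were called in vehicle. The next 7 were at chr2:152708413-152708552, chr11:101878333-101878574, chr12:38676785-38676928, chr2:187190959-187191158, chr9:20684035-20684305, chr11:11643589-11643750 and chr4:89658875-89659026, with 26 to 35 tags. None of the 10 was in the combination list, 3 were in the vehicle list, and the nearest estradiol region was 33.5 kb or more away from each.

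The 535 estradiol regions without a dexamethasone counterpart were low as well, with a median height of 27.1 against 31.8 for the shared estradiol regions, and a median length of 98 bp against 144. At equal height the dexamethasone library would have stacked a median of 13.4 tags on them, and 118 (22.1%) would have exceeded 15, the 10th percentile of the dexamethasone list. Here the depth factor of 1.27 acts in reverse and lowers these values from the start. With the median ratio of 1.51 allowed for, the median came to 20.2 tags and 517 (96.6%) exceeded 15. Vehicle held 21 of the 535 (3.93%, 2.45 to 5.94), against 39.1% of the shared estradiol regions. This contrast is not at like height. Over all estradiol regions, shared or not, vehicle held 13.8% below a height of 30 and 37.0% from 30 to 40. Of the 535, the combination held 13 (2.43%, 1.30 to 4.12), against 3 of 4239 (0.0708%, 0.0146 to 0.207) for unshared dexamethasone regions. Among shared estradiol regions the combination share was 86 of 4226 (2.04%, 1.63 to 2.51), a share inside the interval of the unshared ones.

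Among the unshared estradiol regions, the strongest were often seen in other libraries. The first and second lay at chr2:92296819-92296920 (28 tags, height 44.6) and from 92281265 to 92281387 (26 tags, height 41.4), and their nearest dexamethasone regions were 6.22 and 5.29 kb away. The third was at chr4:68265542-68265630 (37 tags, height 58.9). These 3 were called in every library but the dexamethasone one. Those at chr8:46852424-46852515 (24 tags), chr10:42392695-42392781 (43 tags) and chr10:42396121-42396204 (44 tags) were in the combination list but not in vehicle. The remaining 4, chr16:67051954-67052101, chr18:18518094-18518177, chr10:69857039-69857156 and chr3:194814991-194815161, had 23 to 44 tags and were absent from the combination. In all, 6 of the 10 were in the combination list, where 0 of the 10 strongest unshared dexamethasone regions were. The 2 sets also differed in local background, which ran from 0.628 to 4.64 tags at these 10 and from 0.596 to 1.64 at the dexamethasone ones. It was highest at the regions on chromosome 10 from 42392695 (3.81) and 42396121 (4.64) and on chromosome 18 (4.60). The median over all 535 was 1.01. Whether these regions lie in repeats was not tested.

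The difference between the hormone libraries was spread over all 23 chromosomes. The median ratio ran from 1.38 on chromosome 22 (34 sites) to 1.61 on chromosome 13 (80 sites). On 21 chromosomes the interval of the median included the overall 1.51; the exceptions, both lower, were chromosome 9 (1.43, 1.40 to 1.48, 156 sites) and chromosome 19 (1.43, 1.36 to 1.45, 171 sites), the latter known for its high gene density. The number of dexamethasone regions per estradiol region ran from 1.63 on chromosome 19 to 2.18 on the X chromosome. The measured ratios of neighbouring sites were only weakly similar, and counting error in single ratios lowers such correlations by an amount not estimated here. Over 186 pairs of adjacent sites less than 10 kb apart Pearson's r of the log2 ratios was 0.19 and Spearman's rho 0.18, over 2141 pairs 100 to 1000 kb apart they were 0.01 and -0.002; pairs share both libraries and, when close, part of the local background.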

How the data were processed

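Each of the 4 libraries has 1 deposited peak table. Peaks come from MACS 2.1.0.20140616, run by the authors on each library by itself, per the file headers, with no control library, at a p cutoff of 1e-10 and at most 1 tag per position. Tags of 50 bp were extended to a modelled length, so a height is a stack of extended tags, not of transposase cuts. Bowtie 1.1.2 and hg19 are named in the submitters' processing notes; their role is not given in the sources used here. The deposited pileup signal is the whole number of extended tags at the summit, not scaled to depth. The fold enrichment deposited by the authors is a ratio of pileup to local background (10 kb window), each plus 1, and significance is deposited as −log10 of p-values and q-values.

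Here each pileup was divided by the library's mean coverage: tags after filtering times modelled length, over the header's genome size of 2.7 Gb. The lowest local background recovered from the fold enrichments equalled that mean coverage (0.494 and 0.628 tags per base). Regions of both lists joined by overlaps of at least 1 bp formed a shared site, with the tallest region of each library. Ratios carry exact conditional binomial 95% intervals, and shares exact Clopper-Pearson 95% intervals; a count of 0 is given a limit of 3 counts. All of these cover counting error only. Intervals of medians treat sites as independent draws and do not stand for the spread between libraries. With 1 library per treatment there was no test. Overlap, ratio and interval code was tested on simulated data. Software was scipy 1.17.1, pandas 2.3.3 and numpy 2.4.6 under Python 3.11.15.

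Sites were named by rank: the 10 highest and 10 lowest ratios, the 10 with the highest product of scaled heights, the 10 unshared regions of each list with the lowest p, and, among sites with at least 50 tags of summed pileup, the 5 extremes by the interval bound nearest to 1. The sites, lists and ranking were chosen with earlier results of these data known. Alternatives were scaling by tags alone, division by the median ratio, fold enrichments, single-region sites, a 50% overlap, a 500 bp extension, −log10 q of at least 10, fold enrichment of at least 5 and sites without neighbours within 10 kb; 2 site filters were added after seeing the data. A planned look at genes and motifs was not run, since the gene tables at hand are on another build; no region is given a gene or a sequence here. Regions on the Y chromosome and mitochondrial DNA (9 of the dexamethasone list, 11 of the estradiol list) were outside the comparison.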

Additional observations from a re-analysis of the deposited data

Results flagged for a closer look

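Outside the chromosomes compared, the Y chromosome held 2 dexamethasone regions and 4 estradiol regions, against 1 in the vehicle list; it is given here because these regions lie outside the comparison and their numbers exceed the control. As shares of lists of unequal length they do not all exceed it: 0.0237% (exact 95% interval 0.00287 to 0.0857) with dexamethasone and 0.0838% (0.0228 to 0.215) with estradiol, against 0.052% (0.00132 to 0.289) in vehicle, with intervals that overlap. Of these, the regions from 10025177 to 10025282 (24 tags) and from 10037770 to 10037895 (36 tags) in the dexamethasone list have estradiol counterparts with 23 and 36 tags. The other 2 estradiol regions lay from 13485382 to 13485471 (39 tags) and from 13842663 to 13842792 (25 tags), and the combination list, with 5 regions on this chromosome, held both. Ishikawa cells come from a tumour of the endometrium, and so from a woman, and should carry no Y chromosome. These regions are therefore not to be read as open chromatin of a Y chromosome. Where their reads come from was not tested.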

How the results depend on the processing

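The median ratio of 1.51 was 1.60 when scaled by tags alone, 1.14 from fold enrichments and, by construction, 1 after division by itself; it was 1.59 at sites with at least 50 tags in sum, a filter chosen after seeing the data. It was 1.503 to 1.514 under the alternatives not named here. Sites at least 2-fold higher with dexamethasone numbered 539 by tags alone, 2 by fold enrichment, 1 after division by the median and 147 of 1412 (10.4%) with at least 50 tags in sum, against 320 of 4166 (7.68%); sites 2-fold higher with estradiol numbered 2 after division by the median and 0 otherwise. The median at vehicle-called sites over that at the others was 1.08, and 1.03 by fold enrichment and 1 with at least 50 tags in sum. The share of dexamethasone regions overlapping estradiol was 52.2% with a 500 bp extension and 46.95% at −log10 q of at least 10, against 49.65%; the reverse share was 87.5% with a 50% overlap and 89.8% with the extension, against 88.8%. Tags alone and division by the median multiply every ratio by 1 constant and so keep the ranking; by fold enrichment the 10 highest ratios were 1.63 to 2.104 and the 10 lowest 0.635 to 0.886.

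Stacks of 10 to 101 tags limit every single-site ratio, and with 1 library a treatment the general difference in height cannot be told apart from a difference between these 2 libraries in signal over background. The cause was not tested.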

Other observations

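Some of the tallest shared sites sat in tight clusters, which were chosen after their values were seen. On chromosome 6, 6 shared sites lay within 2.05 kb (58777091 to 58779136), with ratios of 0.995 to 1.248 and local backgrounds of 10.1 to 10.2 tags with dexamethasone and 11.6 to 11.9 with estradiol; 4 of the 6 were called in vehicle and 5 in the combination. On chromosome 21, 4 shared sites lay within 2.04 kb (9825479 to 9827516), with ratios of 1.35 to 1.43 and backgrounds of 10.6 to 11.1 and 9.45 to 10.1 tags, and all 4 were called in vehicle and in the combination. Both clusters thus stood below the median ratio of 1.51, at backgrounds far above the median of 1.264 and 1.201 tags over all shared sites.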
